A study of Heliothis virescens with 2 samples.

Results

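Ribosomal protein tags were followed in the gut of *Heliothis virescens*, a noctuid moth pest, by HT-SuperSAGE, which counts 26-bp tags that begin at the NlaIII site CATG of a cDNA. The list held 40 tags of 33 proteins, out of 35963 tag sequences in all: 22 tags of the large cytosolic subunit (RpL, with the acidic stalk protein RpP2), 16 of the small subunit (RpS) and 2 of the mitochondrial ribosome (mRpL). Members were the tags that the study named as a ribosomal protein among its called tags, so they were selected on the measured fold change and P of this same contrast. All values of the contrast below are therefore descriptions with no test. Ribosomal protein tags that missed the thresholds carry no protein name in the sources used here and were not analysed here.

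Vip–Sel was a strain selected with the *Bacillus thuringiensis* protein Vip3Aa and resistant to it, and Vip–Unsel was the susceptible strain kept without selection from the same field-derived population. For both, guts were dissected from 25 larvae of instar 3 reared on diet without Vip3Aa, in 5 RNA preparations of 5 guts each, and the preparations of a strain were pooled into 1 library. The Vip–Sel insects had been kept without selection for several generations before sampling. There were no replicates, so a difference compares these 2 libraries and not the strains, and intervals cover counting error only. They can be too narrow even for that, since PCR copies are not independent molecules. In pooled gut RNA, fewer cells of a type and less RNA per cell cannot be told apart.

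The ribosome translates mRNA with a small subunit, which reads the codons, and a large subunit, which joins the amino acids and extends at its side into a stalk that recruits elongation factors. Each cytosolic subunit needs its proteins in matched numbers, and their mRNAs are among the most abundant of growing cells. Mitochondria carry a ribosome of their own, with proteins encoded in the nucleus.

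The sequences on which the results turn are the tags of proteins with several tags and the most abundant single tags, printed as deposited with the NlaIII site in capitals. Tags of RpP2 and RpS16, the proteins with tags in both directions, come first.
RpP2 Tag_50: CATGcccgctggtggcgccgctcccg
RpP2 Tag_216: CATGcctgctggtggtgccgctcccg
RpP2 Tag_305: CATGggcttcggtctgtttgactaaa
RpS16 Tag_150: CATGgagtgttgcgcgttaacggtcg
RpS16 Tag_863: CATGtcgcccaggtgtatgctatcag
RpS3 Tag_60: CATGggaccaacaaggcaagaacggc
RpS3 Tag_2251: CATGcacgacgcacagcaagtcctcc
RpS3 Tag_4740: CATGattgcaacgggagcgaaggaaa
RpL21 Tag_770: CATGaaagtgtacaaagtcggcgaca
RpL21 Tag_1245: CATGagtgcggaatctgcgggcgaac
RpL27A Tag_1668: CATGtccgtggctcacgtgtcctcgg
RpL27A Tag_1856: CATGagaggaagaacaagctgttcaa
RpSA Tag_57: CATGggctgaggacgccgcgccacca
RpL13A Tag_410: CATGattccacacaagactgagcgcg
RpL14 Tag_465: CATGgacagacgctaagctgaccgaa

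The libraries differed in depth and in make-up. Vip–Sel held 1056080 counts and Vip–Unsel 268172, a ratio of 3.94. The median log2 fold change of the 5237 tags counted in both libraries was -1.08 on library totals. These tags all needed a count in the shallower Vip–Unsel library, which favours negative values. How far this lowered the median was not tested, so it is not read as a typical tag being lower in Vip–Sel. With TMM library sizes (edgeR) that median was -0.0018 and every log2 value rose by 1.08. TMM thus centres the tags counted in both libraries and carries the same limit, so it is no separate check of the calls. The 6 gut marker tags, of HMG176, trypsins and chymotrypsin, were all OE and took 22.2% of the Vip–Sel counts and 4.35% of those in Vip–Unsel. Among all called tags named as a trypsin or chymotrypsin, 14 were OE and 9 UE, so the families were not of 1 direction. The 5 muscle tags summed to 0.0337% and 0.144%, and the 3 cuticle tags to 0.101% and 0.255%. The cuticle tags disagreed, since larval cuticle protein 1 (Tag_163) had 427 and 8 counts while the cuticle protein CP438 (Tag_116) had 634 and 669. Called tags were matched only where both libraries had a count, so no marker could be at 0 in either library. All markers were named only for called tags, and the part of these cell types in the ribosomal protein values was not tested.

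The fold change (FC) is the Vip–Sel over the Vip–Unsel count after scaling both libraries to a common total. Overexpressed (OE) tags had FC values of 2.5 or more and underexpressed (UE) tags values of 0.4 or less, both with a one-sided Audic and Claverie P under 0.05. By this rule 19 members were OE, beside 6.70% of the 15467 tags counted at least 2 times and 8.02% of the tags counted in both libraries. The other 21 were UE, beside 27.0% and 30.0%. Since the rule kept called tags only, nothing is read from the members' own share. The FC of OE members ran from 2.60 to 19.4 with a median of 6.73, and that of UE members from 0.0282 to 0.383 with a median of 0.203. Just inside the thresholds lay RpL37 Tag_861, with an FC of 2.60, and RpP2 Tag_305, with an FC of 0.383.

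**Figure D1:**
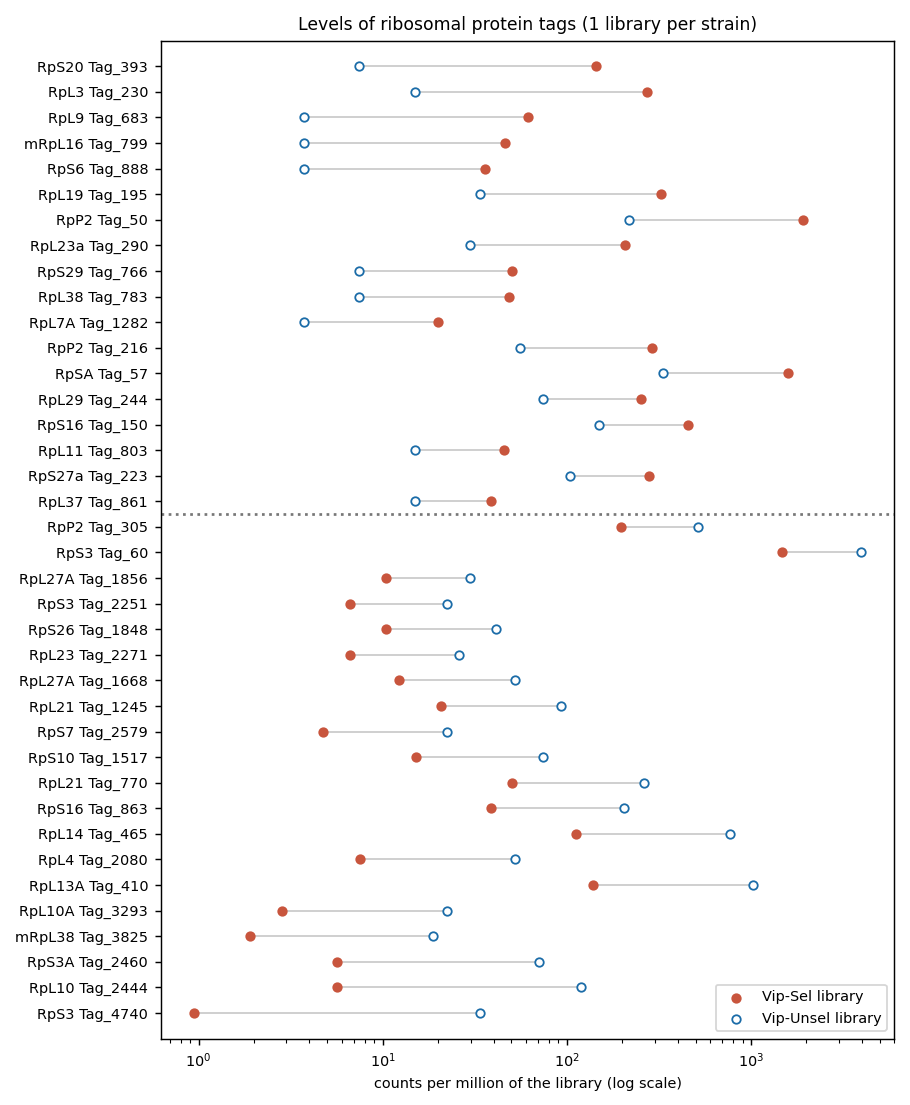
CPM, the count of a tag scaled to its library's total (log axis), of 38 of the 40 tags in the Vip–Sel library (filled) and the Vip–Unsel library (open), ordered by FC, with 1 library per strain. The 18 OE tags drawn stand above the dotted line and the 20 UE tags below it, and RpS3 Tag_60 in Vip–Unsel is the highest point.

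OE calls rested on few Vip–Unsel counts. Of the 19 OE members 13 had fewer than 10 counts in Vip–Unsel, 8 had at most 2 and 5 had 1. UE calls rested on few counts too, with 9 members under 10 counts in Vip–Sel and 7 under 10 in Vip–Unsel. The median count over both libraries together was 27 for UE members and 155 for OE members. Of the 21 UE members 14 had fewer raw counts in the deeper Vip–Sel library than in Vip–Unsel. The other 7 had at least as many raw counts in Vip–Sel and were lower only per library. With TMM library sizes 19 OE calls and 8 UE calls were left, the latter RpS3 Tag_4740, RpL10, RpS3A, mRpL38, RpL10A, RpL13A, RpL4 and RpL14. Of these 8, mRpL38 and RpL10A lost their calls at a minimum of 10 counts on library totals. The 13 UE calls that ended under TMM included all those of RpL21, RpL27A, RpS16 and RpP2, and RpS3 Tag_60. Since TMM centres tags that needed a Vip–Unsel count, this does not decide which library size is right.

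Among the small subunit proteins, 7 tags were OE and 9 UE. RpSA, the homologue of the laminin receptor precursor, was counted 1676 times in Vip–Sel and 89 times in Vip–Unsel (1587 and 331.9 CPM), an FC of 4.78 (95% interval 3.86 to 5.99). It had the highest Vip–Sel level of the small subunit tags. RpS20 Tag_393, of the small subunit head, had 153 and 2 counts and an FC of 19.4, with an interval of 5.29 to 162 set by the 2 Vip–Unsel counts. No single member tag had a higher FC, but with tags sharing the first 24 bases summed it was 11.4, below RpL9 (17.0), RpL19 (12.4) and RpL3 (12.1).
RpS27a, made as a fusion with ubiquitin, had 295 and 28 counts, an FC of 2.68 (1.81 to 4.10). RpS29, a small zinc-binding protein, had 53 and 2 counts. These small subunit tags were all higher per library in Vip–Sel. Other small subunit tags were lower per library in Vip–Sel. RpS3A had 6 and 19 counts, RpS10 16 and 20, RpS26, near the mRNA exit, 11 and 11, and RpS7 5 and 6.

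Among the large subunit proteins, 11 tags were OE and 11 UE. RpL3, which lies near the peptidyl transferase centre, had 289 and 4 counts, an FC of 18.3 (7.09 to 67.8). RpL19 Tag_195 had 341 and 9 counts (322.9 and 33.6 CPM), an FC of 9.62 (5.01 to 21.2). RpL23a, at the exit of the peptide tunnel, had 218 and 8 counts and RpL29 267 and 20. Each of these OE tags was above the OE median of 153 counts in Vip–Sel.
RpL9 had 65 counts and 1, RpL38 51 and 2, and RpL37 41 and 4. The interval of RpL37 began at 0.943 and thus spanned an FC of 1. RpL13A Tag_410, known in mammals also as a repressor of translation outside the ribosome, had 147 and 275 counts (139.2 and 1025 CPM), an FC of 0.136 (0.110 to 0.166). RpL14 had 119 and 207 counts (112.7 and 771.9 CPM), an FC of 0.146 (0.116 to 0.184).
Both were thus among the UE calls left with TMM library sizes. RpL10, which joins the subunit late in its assembly, had 6 and 32 counts, an FC of 0.0476 (0.0163 to 0.115). RpL4, of the peptide tunnel, had 8 and 14 counts, RpL23 7 and 7, and RpL10A, of the L1 stalk, 3 and 6. The mitochondrial tags were split: mRpL16 had 49 counts and 1, an FC of 12.4 (2.13 to 501), and mRpL38 had 2 and 5, an FC of 0.102 (0.00967 to 0.620).

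Tags of 1 protein can be set against each other within a library, and that ratio does not depend on library sizes. Where 1 tag was OE and the other UE, the calls that chose them fixed the direction of their odds ratio. These calls also kept it away from 1, as in RpP2 and RpS16. RpP2, the acidic protein of the stalk, had 3 tags. Tag_50 was counted 2016 times in Vip–Sel and 58 times in Vip–Unsel (1909 and 216.3 CPM), an FC of 8.83 (6.80 to 11.7), and Tag_216 305 and 15 times, an FC of 5.16 (3.08 to 9.34). Tag_216 differed from Tag_50 only by C7T and C16T, counted from 1 at the C of CATG with the base of Tag_50 first. Tag_305 was counted 208 and 138 times (197.0 and 514.6 CPM), an FC of 0.383 (0.307 to 0.478), and differed from Tag_50 at 17 positions.
In Vip–Sel there were 9.69 counts of Tag_50 for each of Tag_305, and in Vip–Unsel 0.420, an odds ratio of 23.0 (16.2 to 32.9). Between Tag_50 and Tag_216 the odds ratio was 1.71 (0.888 to 3.10). The names rest on matches to different contigs, and whether the tags come from 1 gene was not tested.

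RpS16, whose tail reaches the tRNA in the P site, was the other protein with both calls. Tag_150 had 481 and 40 counts (455.5 and 149.2 CPM), an FC of 3.05 (2.21 to 4.33), and Tag_863 had 41 and 55 (38.8 and 205.1 CPM), an FC of 0.189 (0.123 to 0.289). Tag_150 was thus counted 11.7 times as often as Tag_863 in Vip–Sel and 0.727 times as often in Vip–Unsel, an odds ratio of 16.0 (9.30 to 27.9). These tags differed at 18 positions and matched different contigs, and whether they come from 1 gene was not tested.

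The other proteins with several tags had UE tags throughout. RpS3, at the mRNA entry of the small subunit, was carried by Tag_60, with 1559 and 1062 counts (1476 and 3960 CPM) and an FC of 0.373 (0.345 to 0.403). Its Tag_2251 had 7 and 6 counts and Tag_4740 1 and 9, both on the same contig. Tag_60 and Tag_2251 had an odds ratio of 1.26 (0.348 to 4.39), and Tag_60 and Tag_4740 one of 13.2 (1.82 to 579), which rests on 1 Vip–Sel count and was 3.52 (1.01 to 15.4) with the tags sharing the first 24 bases summed. RpL21 had 53 and 70 counts in Tag_770 and 22 and 25 in Tag_1245, an odds ratio of 0.861 (0.415 to 1.79). RpL27A had 13 and 14 counts in Tag_1668 and 11 and 8 in Tag_1856, an odds ratio of 0.681 (0.175 to 2.56).

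Like tags, which the rule did not use, gave further counts for most members. Over the 40 members, tags with the same first 24 bases and other last bases raised the counts from 9040 to 12164 in Vip–Sel and from 2551 to 3105 in Vip–Unsel. The member tag held 74.3% of them in Vip–Sel (73.5 to 75.1) and 82.2% in Vip–Unsel (80.8 to 83.5). With the sums 16 of the 19 OE calls and 20 of the 21 UE calls were kept. Each sum includes the member tag, which was chosen by its call, so a kept call is largely built in. It gives no separate support. Whether forms that differ only in the last bases come from the same molecules was not tested. Those lost were RpS6, RpL7A (31 and 3 counts, FC 2.62), RpL11 (FC 2.37) and RpL27A Tag_1856 (FC 0.416).

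RpS6, the target of S6 kinase, lost its direction with like tags. Its Tag_888 had 38 counts and 1, an FC of 9.65 (1.63 to 391). The forms that differed at the last base only, shown with that base in capitals, had the opposite direction.
RpS6 Tag_888 form A26G: catgaaacagggagtcctcaccaacG
RpS6 Tag_888 form A26T: catgaaacagggagtcctcaccaacT
The A26G form had 16 and 12 counts and the A26T form 14 and 10. All tags with the first 24 bases summed to 72 and 26 counts, an FC of 0.703 (0.443 to 1.15). That interval spans 1, and with TMM library sizes, a combination chosen after the data were seen, the log2 ratio of the sum was 0.57 in place of -0.51. Of this sum Tag_888 held 52.8% in the Vip–Sel library but 3.85% in the Vip–Unsel library. The study also measured RpS6 by qRT-PCR on newly dissected guts, with primers on the contig that Tag_888 matched. It reports that profile as being in keeping with the OE call, and likewise that of RpS20, measured on the contig of Tag_393. Those measurements are not part of the counts used here.

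**Figure D2:**
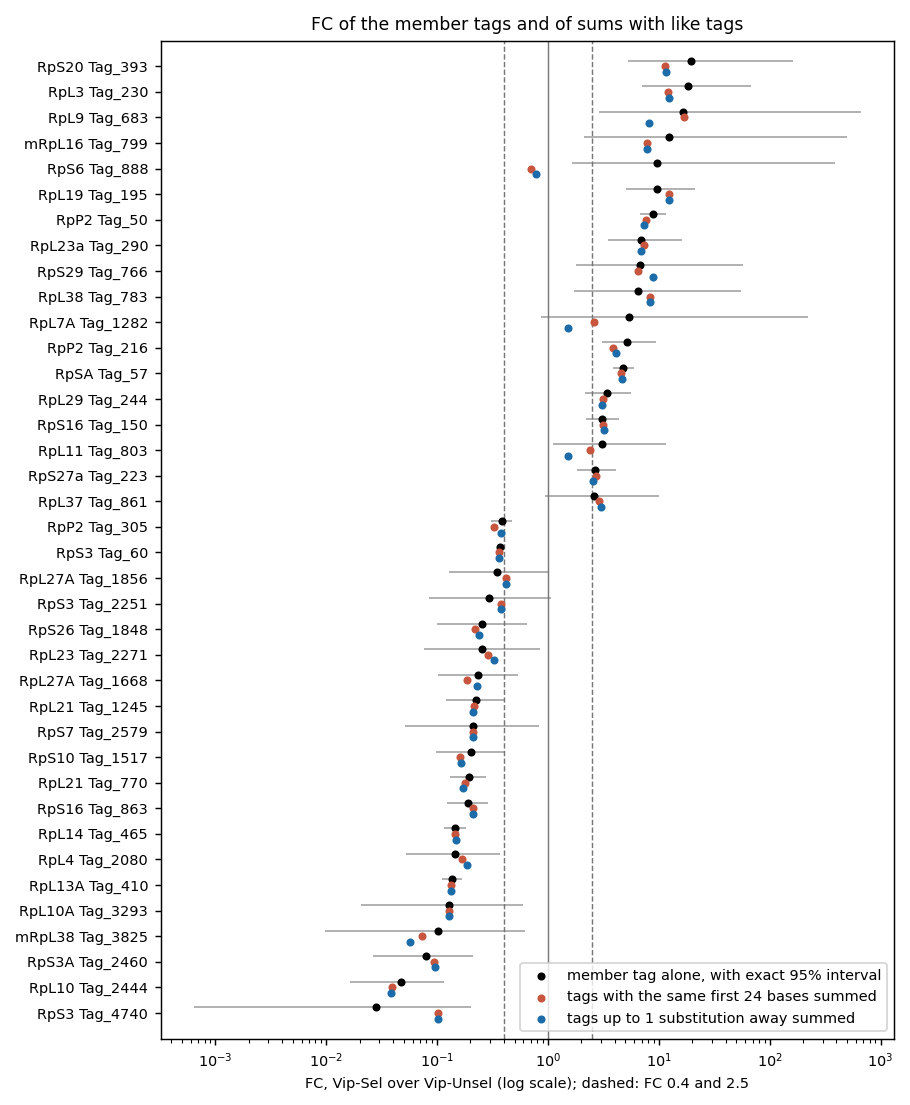
FC (log axis) of 38 member tags with its exact 95% interval, of the sum of tags with the same first 24 bases, and of the sum of tags up to 1 substitution away, with dashed lines at 0.4 and 2.5. RpS6 is the member whose sums, 0.703 and 0.772 on library totals, lie on the other side of 1 from the tag itself.

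RpL11, RpL7A, RpS16 and RpP2 had like tags inside the first 24 bases. The protein of these like tags was not named in the sources used here, so whether they come from the same gene was not tested. They are shown with the differing bases in capitals.
RpL11 Tag_803 form A22G: catgaagtggttccaacagaaGtacg
RpL7A Tag_1282 form T21C: catgttgagtctggcgaccgCgcctc
RpS16 Tag_863 form C6T and T18C: catgtTgcccaggtgtaCgctatcag
RpP2 Tag_305 form T19C and A26G: catgggcttcggtctgttCgactaaG
RpL11, which in mammals binds the p53 regulator MDM2, had 48 and 4 counts in Tag_803 and 218 and 40 in the A22G form, an FC of 3.05 against 1.38. RpL7A had 21 counts and 1 in Tag_1282, an FC of 5.33 (0.858 to 221), beside 10947 and 1847 in the T21C form, an FC of 1.51. These forms were more abundant than the members and met neither threshold.
The RpS16 form with C6T and T18C had 113 and 4 counts, an FC of 7.17, opposite to the 0.189 of Tag_863. The RpP2 form had 319 and 104 counts, an FC of 0.779, and another form of Tag_305 with G16C had 111 and 38. With all tags up to 2 substitutions away in the first 24 bases summed, a sum chosen after the data were seen, the UE calls of RpS16 Tag_863 and RpP2 Tag_305 ended at an FC of 0.664 and 0.487.

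**Figure D3:**
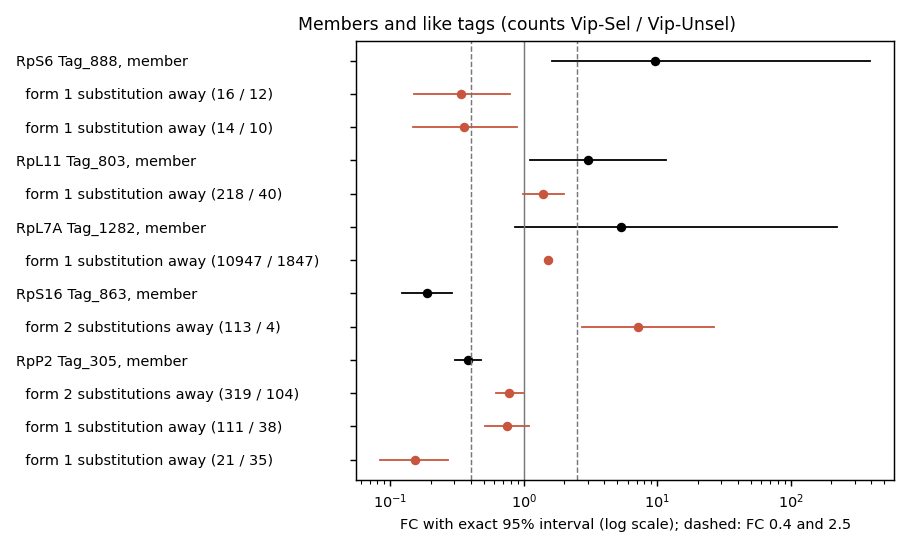
FC with exact 95% interval (log axis) of 5 member tags (black) and their most counted like tags (red, with their counts in Vip–Sel and Vip–Unsel). The forms of RpS6 lie below 0.4 and the RpS16 form at 7.17, each on the other side of 1 from its member.

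Summed over the list, the tags took 0.856% of the Vip–Sel counts and 0.951% of those in Vip–Unsel. The log2 ratio was -0.15 (-0.22 to -0.09) on totals, but 0.93 with TMM library sizes and 0.35 without RpS3 Tag_60. Large subunit tags summed to 4259 and 922 counts, a log2 ratio of 0.23 (0.13 to 0.33), which turned to -0.60 without RpP2 Tag_50. Small subunit tags summed to 4730 and 1623 counts, a log2 ratio of -0.43 (-0.52 to -0.35), which turned to 0.65 with TMM library sizes and to 0.52 without RpS3 Tag_60. Each of these sums changed sign without its most abundant tag. The 2 mitochondrial tags summed to 51 and 6 counts, a log2 ratio of 1.11 (-0.11 to 2.62).

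**Figure D4:**
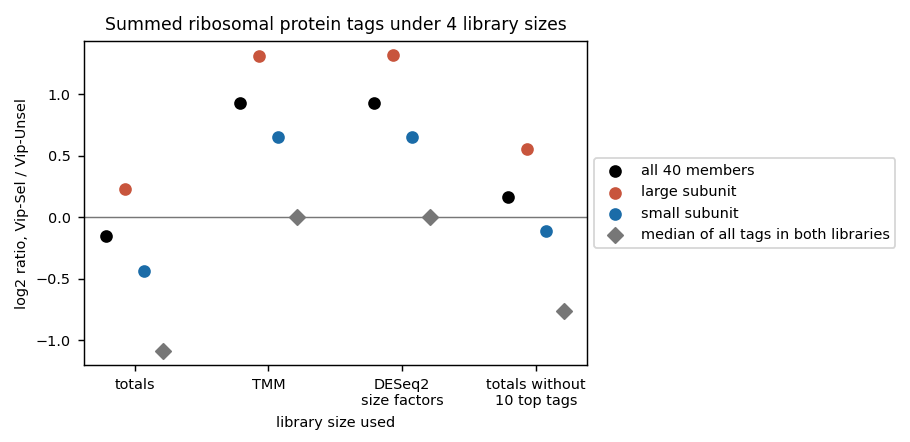
Log2 ratio of Vip–Sel to Vip–Unsel for the summed counts of the 40 members, the large subunit and the small subunit, and the median of all tags in both libraries (diamonds), under 4 library sizes. The order large, all, small is the same under each because scaling moves them together, while the sum of all members is at -0.15 with totals and at 0.93 with TMM.

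GC content and the polyadenylation signal were compared with all tags counted in both libraries. The median GC content was 57.7% for OE members and 53.8% for UE members, beside 69.2% for the 420 OE tags and 61.5% for the 1570 UE tags in both libraries. The polyadenylation signal AATAAA was found in 1 of 40 members, RpL19 Tag_195, and in 0.401% of all tags in both libraries. Its reverse complement TTTATT was in 0 members and in 0.210% of all those tags. The signal is in capitals in this tag.
RpL19 Tag_195: catggtccAATAAAttctttgggtcg
In the contig annotation, 17 of 19 OE members and 12 of 21 UE members ran in the direction of their contig. Orientation was not counted for other called tags, so nothing is read from this difference. A contig can itself lie on either strand, and Tag_216 was listed against its contig although it differs from Tag_50, listed along its contig, at 2 positions only.

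The other called tags of translation and ribosome biogenesis were 24, of which 5 were OE and 19 UE, and they too were named only because they were called. Calls over the whole contrast, for tags present in each library, were 420 OE and 1570 UE, so nothing is read from the 5 and 19. All 6 elongation factor tags were UE, but Tag_4016, Tag_4219 and Tag_339 were all named elongation factor 2. Of these, Tag_4219 had 1 and 2 counts. Whether the 24 calls hold with TMM library sizes, which raised every log2 value by 1.08, was not tested. Elongation factor 1 alpha (Tag_16), which brings tRNA to the ribosome, had 9229 and 6819 counts, an FC of 0.344, and elongation factor 1 gamma (Tag_99) 781 and 900. Of 6 initiation factor tags 1 was OE, initiation factor 4A (Tag_758), an RNA helicase, with 54 and 3 counts, and of 5 tRNA ligase tags 1 was OE, the seryl-tRNA synthetase (Tag_1195), with 24 counts and 1.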

How the data were processed

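The authors removed incomplete and low-quality reads, kept 26-bp tags and deposited raw counts of each tag per library. No aligner or genome enters the counts. Protein names, contigs and orientations came from the study's lists of called tags, whose text has reading errors, so the 40 entries were matched to deposited tags by counts and letters. RpL13A Tag_410 was joined by normalized values, with 12 letters differing. Members and lists were chosen with earlier results of these data known. Proteins with several tags and the most abundant tags are given in full. Values of the tags of 3 ribosomal proteins are not reported here, and 2 of these tags are part of the counts and sums of the list.

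FC used counts scaled to a common total, and a count of 0 was set to 1. P was the one-sided Audic and Claverie probability, not adjusted, for tags counted at least 2 times. Intervals of ratios are exact 95% binomial (Clopper-Pearson) and those of odds ratios exact conditional. Like tags are mentioned singly from 20 counts in Vip–Sel or 5 in Vip–Unsel. Alternatives were TMM (edgeR 4.0.16), DESeq2 1.42.0 size factors, totals without the 10 most abundant tags, sums of like tags, Benjamini-Hochberg adjustment, Fisher's exact test, a minimum of 10 counts and no minimum. Python 3.11.15, numpy 2.4.6, scipy 1.17.1, matplotlib 3.10.9 and R 4.3.3 were used.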

Additional observations from a re-analysis of the deposited data

How the results depend on the processing

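The log2 ratio of all members, -0.15, was 0.93 with TMM and with DESeq2 size factors, 0.17 with totals without the 10 most abundant tags, -0.0075 with the first 24 bases summed, 0.23 with tags 1 substitution away summed, 0.18 with up to 2 substitutions, -0.023 with 1 substitution but without RpL7A, and 0.35 without Tag_60. The sums up to 2 substitutions and without RpL7A were chosen after seeing the data. For the large subunit, 0.23, these values were 1.31, 1.31, 0.55, 0.44, 0.51, 0.35 and 0.38, and -0.60 without Tag_50. For the small subunit, -0.43, TMM gave 0.65, DESeq2 size factors 0.65, totals without the 10 most abundant tags -0.11, and the list without Tag_60 0.52. RpP2 without Tag_50 had -0.23. RpS6 Tag_888 turned to -0.51, -0.37 and -0.43 with the 3 sums of like tags, and was 0.57 for the first 24 bases with TMM. UE calls numbered 8 with TMM and 8 with DESeq2 size factors in place of 21. Without the 10 most abundant tags 18 UE calls were kept, and those of RpS3 Tag_60, RpP2 Tag_305 and RpL27A Tag_1856 ended. At a minimum of 10 counts 19 UE calls were kept, and those of mRpL38 and RpL10A ended. The OE calls of RpL7A and RpL37 ended with Benjamini-Hochberg adjustment and with Fisher's exact test (17 of 19 kept). Over all tested tags the OE share, 6.70%, was 16.7% with TMM and with DESeq2 size factors, 9.15% without the 10 most abundant tags, 4.75% with Benjamini-Hochberg adjustment, 5.11% with Fisher's exact test, 28.7% at a minimum of 10 counts and 2.88% with no minimum. The UE share, 27.0%, was 21.0%, 20.9%, 25.8%, 24.5% and 24.5% under the first 5 of these. Library sizes shift all tags together by construction, and the cause of the other changes was not tested. TMM and DESeq2 size factors both centre the tags counted in both libraries. Neither is therefore free of the count needed in the shallower Vip–Unsel library. The 268172 counts of Vip–Unsel limit the OE tags, of which 5 had 1 count there. No paired analysis was possible because each strain had 1 library.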
